A study of Mus musculus with 9 samples.

Results

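The genes described here carry glucose from uptake through glycolysis to lactate export, with the enzymes that set the entry of pyruvate into mitochondria and a pair that build glycogen. They were chosen by symbol, 35 in all, and 34 of the 41457 genes in the deposited table carried such a symbol. Aldoa, the main fructose bisphosphate aldolase of most tissues, is split over a pair of rows and is given apart. The samples were PancOVA cells, a mouse tumour cell line, sorted after 48 h in matrigel with mouse pancreatic stellate cells of the line mPSC45 (CD90.1). All stellate cells were first made quiescent in matrigel under low serum. The qPSC group (3 libraries) kept them in that state as the control, the myCAF group (3 libraries) used cells primed for 48 h with rhTGF-β1 at 2 ng/ml, and the iCAF group (3 libraries), labelled Tc17-iCAF, used cells primed for 48 h with conditioned media. Tumour cells in all groups carried the dye eFluor670 and were sorted by it. Each group therefore rests on 1 tumour line and 1 stellate line. The labels name triplicates without saying whether they were separate cultures, so p-values here measure only the spread between libraries, which may be technical.

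Glycolysis splits glucose into pyruvate through a chain of cytosolic enzymes, with phosphofructokinase as its main point of control. Pyruvate is then either reduced to lactate and carried out of the cell, or turned into acetyl-CoA by the pyruvate dehydrogenase complex, which the Pdk kinases inhibit. Tumour cells often run the lactate branch in the presence of oxygen, and many of the genes are known targets of the hypoxia-inducible factor and of Myc.

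Values are given as TPM, transcripts scaled to a common library total after division by gene length. That length matched all annotated exons of a gene joined, such as 13401 bases for Pfkp and 3340 for Pfkm. Levels of different genes can thus be compared only roughly, since they depend on annotated length as well as on transcripts. The TPM values implied 38870600 to 45317242 reads per library. iCAF replicate 3 stood apart: ribosomal protein genes took 20.8% of its TPM, against 14.0% to 14.9% in the other 8 libraries, and Mki67, a proliferation marker, lay at 44.0 TPM against 87.5 to 134.6 TPM. The keratin genes Krt8 and Krt18 were expressed at 744 to 956 TPM and Vim, of mesenchymal cells, at 2756 to 3227 TPM. Other keratins were lower and less even. Krt19 lay at 18.8, 10.4 and 18.1 TPM in qPSC, 11.2, 21.9 and 36.1 TPM in iCAF and 36.9, 44.1 and 44.8 TPM in myCAF. Krt7 lay at 0.0256 to 0.128 TPM. The epithelial genes Epcam and Cdh1 reached at most 0.0275 and 0.0176 TPM. Transcripts of fibroblast marker genes were present at differing levels, and whether they came from stellate cells or from the tumour cells cannot be told apart. Of 18 fibroblast markers 15 passed the filter on low values, and without S100a4 and Fn1, which gave 84.6% to 95.1% of the sum, their summed level was 579 to 680.1 TPM in qPSC, 356 to 594 TPM in iCAF and 616 to 997 TPM in myCAF libraries. Thy1, which encodes CD90, lay at 2.81 to 5.40, 2.05 to 3.46 and 3.28 to 9.04 TPM in the same order, and Fap, Col1a2 and Lum stayed at or below 0.279 TPM. Of 15 leukocyte markers only Cd68 passed the filter, and Ptprc reached at most 0.00376 TPM. In such sorted bulk samples, fewer cells of a type and less RNA per cell cannot be told apart.

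The tumour cells expressed nearly the whole chain. Pkm (2845 to 3511 TPM), Pgk1 (2082 to 3897 TPM), Pgam1 (1993 to 2706 TPM), Ldha (1747 to 2514 TPM), Eno1 (1500.0 to 2023 TPM), Gapdh (1123 to 1544 TPM) and Tpi1 (811 to 1352 TPM) were the most abundant. Of the 34 genes, 31 passed the filter of at least 1 TPM in at least 3 libraries. The 3 that did not were the neuronal-type glucose carrier Slc2a3 (0.0166 to 0.167 TPM), the brain aldolase Aldoc (0.0236 to 0.175 TPM) and the lactate exporter Slc16a3 (0.299 to 0.697 TPM). Only Pfkfb3, among those tested, lay below 1 TPM in any library, at 0.932 TPM in iCAF replicate 3. The 34 genes together made up 1.61% ± 0.148 of all TPM after qPSC, 1.56% ± 0.132 after iCAF and 1.95% ± 0.0595 after myCAF co-culture (SD, n = 3). The highest qPSC library held 1.75% and the lowest myCAF library 1.89%, so these groups did not overlap.

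**Figure D1:**
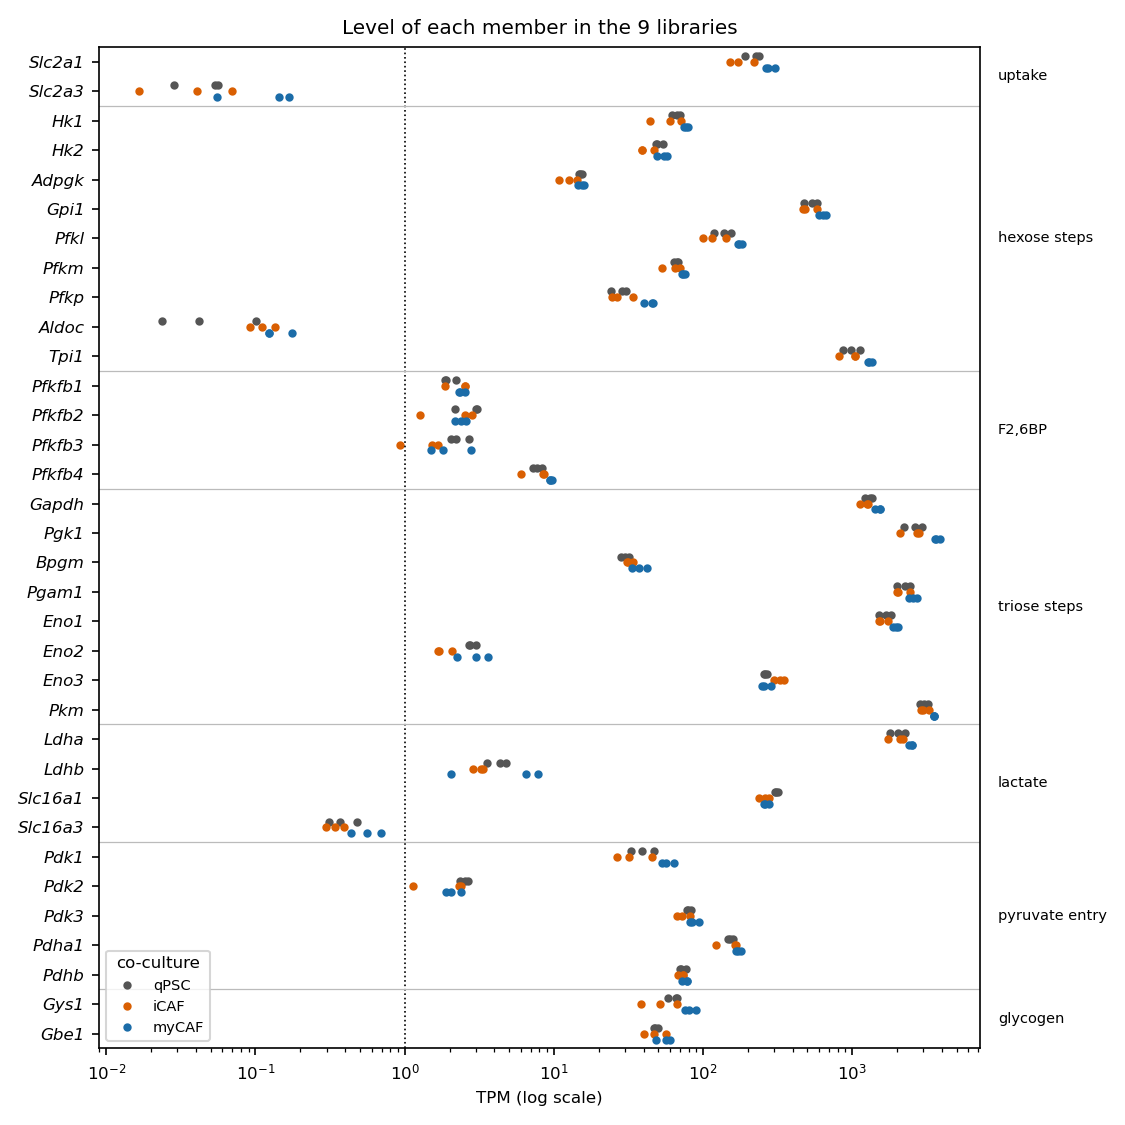
Level of each of the 34 genes in every library, in TPM on a log axis, grouped by role and coloured by co-culture; the dotted line marks 1 TPM. Slc2a3, Aldoc and Slc16a3 lie left of the line, and the blue myCAF points lie to the right of the grey qPSC points for Slc2a1, Pfkp, Tpi1, Pgk1 and Pdk1.

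Tumour cells co-cultured with myCAF had higher values than those with qPSC for most of the pathway, though 0 of the 31 tested genes passed the threshold (limma, adjusted p under 0.05, against 0.0% of all 11704 tested genes higher and 0.0% lower). All myCAF libraries lay above all qPSC libraries for 18 of the 31 genes, against 11.3% of all tested genes, and below them for 1, Slc16a1, against 12.5%. Limma gave 12 genes higher and 1 lower with an unadjusted p under 0.05, against 2.67% and 3.77% of all genes. Limma-voom on the implied reads gave 12 and 1 too, against 3.81% and 4.42%, with 0 called (0.0% of all genes). The log2 fold change was above 0 for 27 genes, against 52.0% of all genes, with a median of 0.20 against 0.01 over all genes. It stayed at 0.20 when each library was centred on its median. Without iCAF replicate 3, which is in neither group but adds to the shared spread, Pfkp was called higher and Slc16a1 lower (limma, adjusted p = 0.0246 and 0.0366), against 1.04% of all genes higher and 1.8% lower. With only these 6 libraries Pgk1 and Tpi1 were called higher as well (limma, adjusted p = 0.0331 and 0.0450), against 1.36% higher and 1.93% lower.

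The comparison of iCAF with qPSC co-culture asked how priming by conditioned media bore on the tumour cells, and the glycolytic genes lay close together in these groups. Again 0 of 31 passed (limma, against 0.0% of all genes higher and 0.598% lower). Only Eno3 had all iCAF libraries above all qPSC libraries, against 4.67% of all genes, while 6 genes (Hk2, Adpgk, Pfkfb3, Eno2, Ldhb and Slc16a1) had them all below, against 23.2%. With an unadjusted p under 0.05 limma gave 1 gene higher and 5 lower, against 1.95% and 13.9% of all genes. Limma-voom gave 4 and 2, against 8.19% and 10.9%, with 0 called (0.283% of all genes). Fold changes were above 0 for 5 genes, against 22.6% of all genes, with a median of -0.09 against -0.15 over all genes. Centring each library on its median moved these medians to 0.11 and 0.05, and left 4 genes higher and 0 lower before adjustment, against 11.7% and 8.07% of all genes, so the direction of the set against 0 depended on the scaling (limma-voom median 0.08). Without iCAF replicate 3 the medians were -0.04 and -0.03.

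Set directly against each other, iCAF and myCAF co-cultures differed with lower values in iCAF for 30 of the 31 genes. Only Eno3 had a fold change above 0, against 24.4% of all tested genes. Again 0 of the 31 were called (limma, against 0.0% of all genes higher and 0.0598% lower). All iCAF libraries lay below all myCAF libraries for 19 genes, against 18.3% of all tested genes, and above them for Eno3, against 4.55%. Before adjustment limma gave 19 genes with a p under 0.05 and lower values, and 1 with higher, against 15.5% and 2.43% of all genes. Limma-voom gave 7 and 1, against 12.8% and 9.11%, with 0 called (0.0% of all genes). The median log2 fold change was -0.30 against -0.15 over all genes. After median centring it was -0.10 against 0.05, with 6 genes lower and 1 higher before adjustment, against 9.34% and 13.8% of all genes. Calls turned on single libraries: without iCAF replicate 2, Slc2a1, Pfkp, Pfkl, Pdk1 and Gys1 were called lower (limma, adjusted p = 0.0289 to 0.0338, against 2.33% of all genes), and without myCAF replicate 2, Ldhb was (limma, adjusted p = 0.0218, against 2.39%). The 3 comparisons share libraries pairwise, so their counts are not independent of each other.

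**Figure D2:**
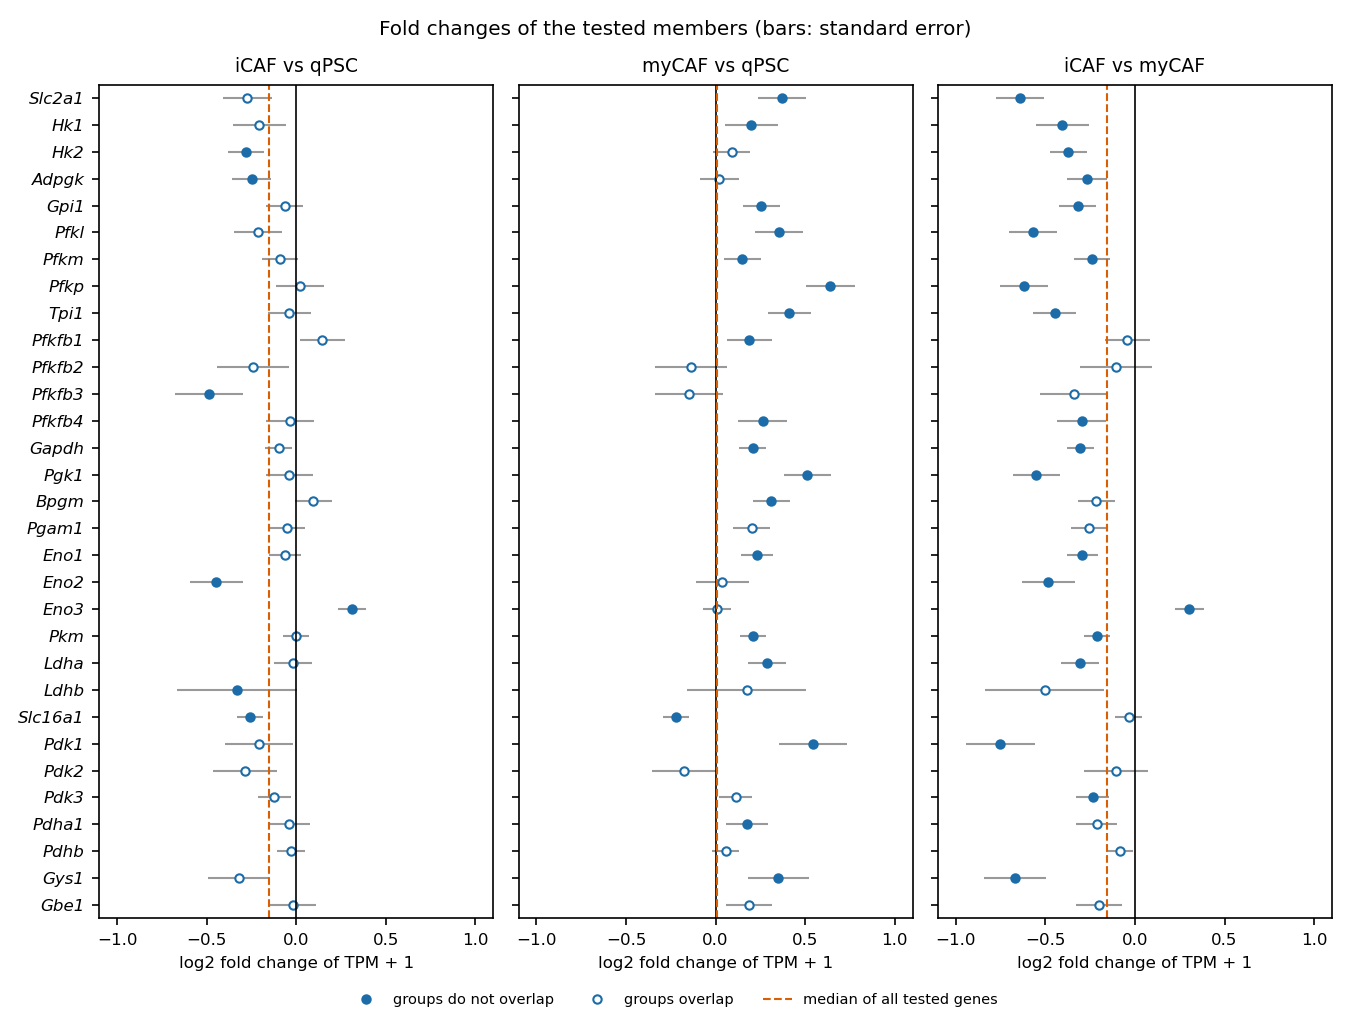
Log2 fold change of TPM + 1 for the 31 tested genes in the 3 comparisons, with bars for the standard error from limma; filled points are genes whose libraries do not overlap and the dashed line is the median of all tested genes. In the middle panel, myCAF against qPSC, 27 of 31 points lie right of 0, and in the right panel, iCAF against myCAF, Eno3 alone does.

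Among the 15 tested fibroblast markers, 12 had positive fold changes in myCAF against qPSC (median 0.25), against 52.0% of all tested genes. In iCAF against qPSC 3 did (median -0.39), against 22.6%, and in iCAF against myCAF 1 did (median -0.83), against 24.4%. Limma called 0, 0 and 1 of them, the 1 with lower values in iCAF, against 0.0%, 0.598% and 0.0598% of all tested genes. The part of these markers in the values of the glycolytic genes was not tested.

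Glucose enters most tumour cells through Slc2a1, the GLUT1 carrier. Slc2a1 (chr4:119108711-119137983, plus strand, GRCm38) lay at 226, 191 and 236 TPM in the qPSC libraries, 152, 219.7 and 172 TPM in iCAF and 266, 273 and 303 TPM in myCAF. Every myCAF library lay above the other 6, while iCAF replicate 2 lay within the qPSC range. The myCAF value was 1.29-fold that of qPSC (log2 0.37, SE 0.14; limma, adjusted p = 0.572), and the iCAF value was 1.56-fold lower than that of myCAF (log2 -0.64, SE 0.14; limma, adjusted p = 0.111). Slc2a3, the high-affinity carrier best known from neurons, did not exceed 0.167 TPM in any library.

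Phosphofructokinase showed the widest margin between myCAF and qPSC co-cultures, in its platelet-type subunit Pfkp (chr13:6579768-6648777, minus strand, GRCm38). Pfkp lay at 28.8, 24.3 and 30.3 TPM in qPSC, 26.5, 33.9 and 24.6 TPM in iCAF and 40.1, 46.1 and 45.3 TPM in myCAF libraries. The myCAF libraries stood above all others, and the iCAF and qPSC ranges overlapped. The value after myCAF co-culture was 1.56-fold that after qPSC (log2 0.64, SE 0.13; limma, adjusted p = 0.193, and 0.0190 to 0.702 over the alternatives) and iCAF was 1.54-fold lower than myCAF (log2 -0.62, SE 0.13; limma, adjusted p = 0.111). Its exons share 748 of 13401 bases with Pitrm1 on the opposite strand, which lay at 51.9 to 74.7 TPM, and whether strand was used in counting is not given in the sources used here. The promoter is shown because Pfkp had the smallest p in myCAF against qPSC; it is the RefSeq window of 250 bases before to 50 after the gene start (chr13:6648722-6649021, minus strand, GRCm38.p6), with capitals marking the motif GCGTG, the other motif searched being ACGTG.
Pfkp: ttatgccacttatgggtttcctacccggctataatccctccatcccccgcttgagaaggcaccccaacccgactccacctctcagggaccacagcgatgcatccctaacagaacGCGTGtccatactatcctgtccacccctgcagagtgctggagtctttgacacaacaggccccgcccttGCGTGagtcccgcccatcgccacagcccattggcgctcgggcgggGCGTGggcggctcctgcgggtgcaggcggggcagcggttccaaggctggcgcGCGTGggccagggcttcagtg
The window held GCGTG 4 times and ACGTG 0 times, on either strand. Both are forms of the short core motif known for hypoxia-inducible factor, and a match in the letters is no evidence of binding.

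The liver-type subunit Pfkl (chr10:77986947-78010083, minus strand) was the most abundant of the phosphofructokinases. Its values were 139, 119 and 155 TPM in qPSC, 99.9, 143 and 115 TPM in iCAF and 173, 172 and 182 TPM in myCAF libraries. Again the myCAF libraries lay apart from the rest, with iCAF replicate 2 inside the qPSC range. Pfkl was 1.49-fold lower in iCAF than in myCAF (log2 -0.57, SE 0.13; limma, adjusted p = 0.123, and log2 -0.37 after median centring). Pfkm, the muscle-type subunit, spanned 53.0 to 75.7 TPM, with myCAF libraries at 72.1 TPM or more and all others at 70.2 TPM or less.

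At the first step, Hk2, the inducible hexokinase of tumours (chr6:82725025-82774454, minus strand), had its lowest TPM in the iCAF libraries. It lay at 53.9, 48.3 and 49.3 TPM in qPSC, 39.1, 46.6 and 38.8 TPM in iCAF and 48.9, 57.6 and 55.1 TPM in myCAF libraries. All 3 iCAF libraries were below the other 6, and qPSC and myCAF overlapped. The difference of iCAF from qPSC was -0.28 on the log2 scale (SE 0.10; limma, adjusted p = 0.289) and from myCAF -0.37 (SE 0.10; limma, adjusted p = 0.159). After median centring these differences shrank to -0.08 and -0.17. Adpgk, a glucokinase that uses ADP in place of ATP, followed at a lower level, with 15.5, 14.8 and 14.9 TPM in qPSC, 12.7, 14.2 and 10.9 TPM in iCAF and 15.5, 14.5 and 15.9 TPM in myCAF libraries. Here too the iCAF libraries were the 3 lowest (iCAF against qPSC log2 -0.25, SE 0.11; limma, adjusted p = 0.315), with a difference of -0.05 after median centring and -0.15 without iCAF replicate 3. Hk1, the constitutive hexokinase, lay at 62.3 to 70.3, 44.3 to 71.6 and 74.1 to 79.2 TPM in qPSC, iCAF and myCAF libraries, and Gpi1, which isomerises glucose phosphate to fructose phosphate, at 475 to 583, 464 to 577 and 597 to 665 TPM. In each of these genes myCAF libraries lay above the rest.

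Tpi1, which interconverts the triose phosphates made by aldolase (chr6:124810586-124814296, minus strand), lay at 974, 869.8 and 1129 TPM in qPSC, 811, 1051 and 1038 TPM in iCAF and 1299, 1283 and 1352 TPM in myCAF libraries. No other library reached the lowest myCAF value. Tpi1 was 1.33-fold higher in myCAF than in qPSC co-culture (log2 0.41, SE 0.12; limma, adjusted p = 0.368, and 0.0450 to 1.00 over the alternatives). Its promoter is shown as that of the third smallest p (chr6:124814109-124814408, minus strand, GRCm38.p6, RefSeq), and it has no capitals, since neither motif was found, which says only that these letters are not in this window.
Tpi1: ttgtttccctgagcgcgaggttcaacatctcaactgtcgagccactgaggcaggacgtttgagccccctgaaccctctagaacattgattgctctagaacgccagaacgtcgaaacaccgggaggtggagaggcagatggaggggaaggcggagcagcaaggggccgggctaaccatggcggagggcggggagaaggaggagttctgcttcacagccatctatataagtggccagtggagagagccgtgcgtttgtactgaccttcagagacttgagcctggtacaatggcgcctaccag
The aldolase Aldoa was listed in rows named Aldoa_1 and Aldoa_2. The first, at 1487 ± 167 TPM with qPSC, 1358 ± 129 TPM with iCAF and 1740 ± 68.7 TPM with myCAF (SD, n = 3), had all myCAF libraries above the other 6 (myCAF against qPSC log2 0.23; limma, adjusted p = 0.733). The second lay at 1.73 to 5.02 TPM, and its values came in whole reads with the exon length of 799 bases of a second gene model of that symbol.

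The Pfkfb enzymes make and remove the sugar bisphosphate that activates phosphofructokinase, and all 4 were expressed at low levels. Pfkfb3, the form with the strongest kinase activity, lay at 2.04, 2.22 and 2.68 TPM in qPSC, 1.53, 1.67 and 0.932 TPM in iCAF and 2.80, 1.49 and 1.79 TPM in myCAF libraries. The iCAF libraries were below all qPSC libraries, while the myCAF libraries spanned both (iCAF against qPSC log2 -0.49, SE 0.19; limma, adjusted p = 0.30, and log2 -0.29 after median centring). Pfkfb4 spanned 7.30 to 8.39, 5.98 to 8.58 and 9.41 to 9.75 TPM in qPSC, iCAF and myCAF libraries, with myCAF above the rest. Pfkfb1 ranged from 1.86 to 2.56 TPM and Pfkfb2 from 1.27 to 3.04 TPM, and for Pfkfb2 no pair of groups was separate.

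**Figure D3:**
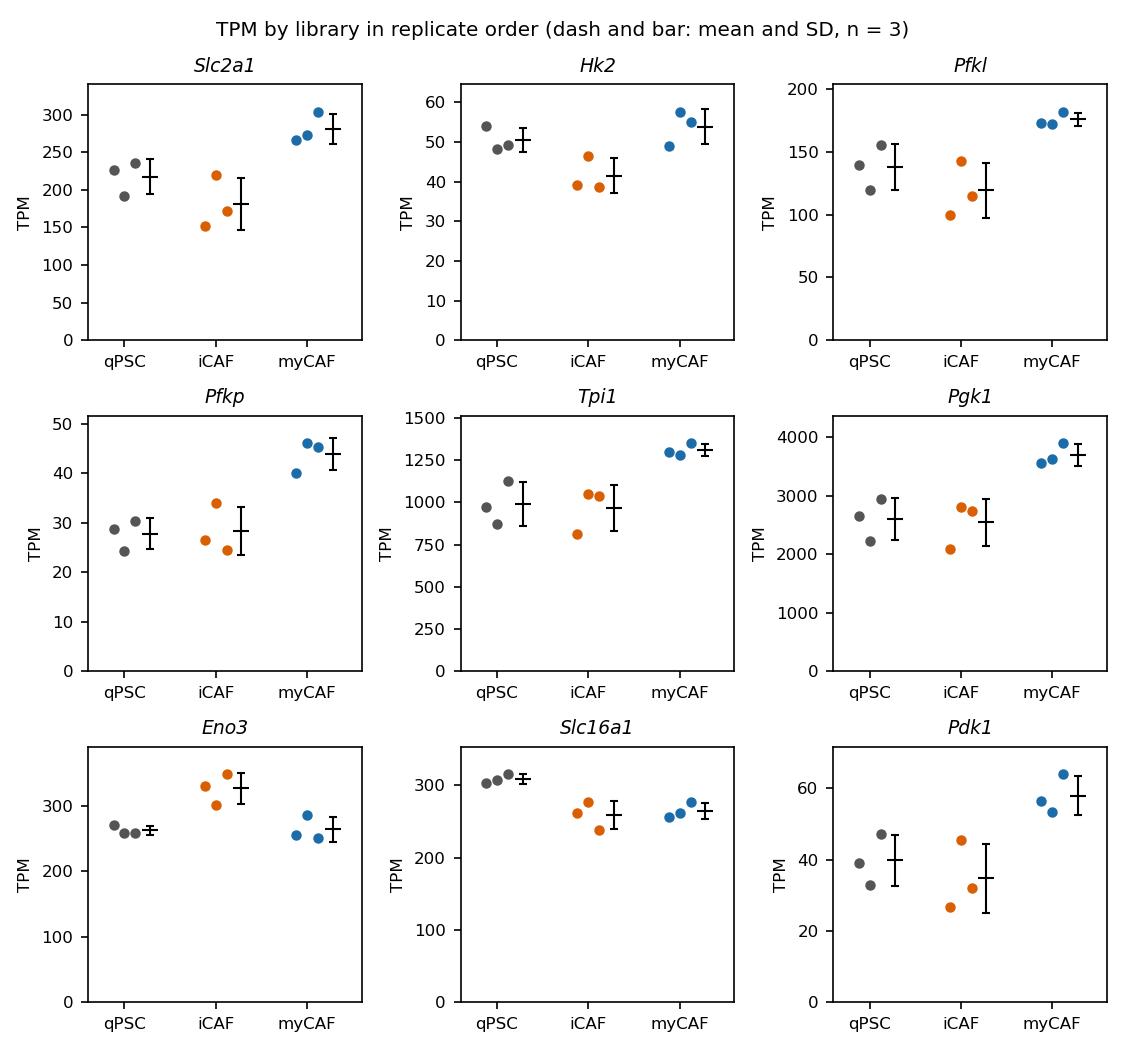
TPM in each library, in replicate order, for 9 of the genes named in the text, with a dash and bar for the mean and SD of 3 libraries. The myCAF points lie above all others for Slc2a1, Pfkl, Pfkp, Tpi1, Pgk1 and Pdk1, the iCAF points lie above all others for Eno3 and below all others for Hk2, and the qPSC points are the highest for Slc16a1.

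Below the aldolase step, Pgk1, the first enzyme of the chain to yield ATP (chrX:106187100-106203699, plus strand, GRCm38), showed the clearest separation. It lay at 2649, 2225 and 2938 TPM in qPSC, 2082, 2803 and 2736 TPM in iCAF and 3561, 3616 and 3897 TPM in myCAF libraries. The lowest myCAF library, at 3561 TPM, stood well clear of the highest other, at 2938 TPM, whose ranges overlapped. Pgk1 was 1.43-fold higher in myCAF than in qPSC (log2 0.51, SE 0.13; limma, adjusted p = 0.268, and 0.0331 to 0.839 over the alternatives) and 1.46-fold lower in iCAF than in myCAF (log2 -0.55, SE 0.13; limma, adjusted p = 0.126, and log2 -0.35 after median centring). Its promoter, that of the second smallest p, held ACGTG 2 times and GCGTG 0 times (chrX:106186850-106187149, plus strand, GRCm38.p6, RefSeq). Capitals mark ACGTG or its reverse complement CACGT.
Pgk1: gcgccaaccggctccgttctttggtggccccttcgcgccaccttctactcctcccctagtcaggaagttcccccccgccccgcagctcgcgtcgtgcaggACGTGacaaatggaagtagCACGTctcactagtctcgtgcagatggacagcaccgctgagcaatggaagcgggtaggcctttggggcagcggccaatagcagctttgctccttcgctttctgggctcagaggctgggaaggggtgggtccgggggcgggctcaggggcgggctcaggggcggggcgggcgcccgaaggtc

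Gapdh oxidises the triose phosphate and is often used as a reference gene. Its values were 1364, 1220.3 and 1319.5 TPM in qPSC, 1259, 1270.4 and 1123 TPM in iCAF and 1427, 1538 and 1544 TPM in myCAF libraries. The myCAF libraries were the 3 highest (iCAF against myCAF log2 -0.30, SE 0.08; limma, adjusted p = 0.136, and log2 -0.10 after median centring; myCAF against qPSC log2 0.21, SE 0.08; limma, adjusted p = 0.566). Bpgm, which makes and removes bisphosphoglycerate, lay at 28.1, 31.8 and 29.9 TPM in qPSC, 31.6, 33.9 and 30.7 TPM in iCAF and 42.3, 33.2 and 37.1 TPM in myCAF libraries. All myCAF libraries exceeded those of qPSC, and iCAF replicate 2 exceeded the lowest of myCAF (myCAF against qPSC log2 0.31, SE 0.10; limma, adjusted p = 0.502). Pgam1, the phosphoglycerate mutase, came close to separation, with qPSC at 1993 to 2451 TPM and myCAF at 2418 to 2706 TPM.

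Pkm, the pyruvate kinase and the most abundant of the genes in qPSC and iCAF libraries, lay at 3025, 2845 and 3243 TPM in qPSC, 2880.2, 3272 and 2962 TPM in iCAF and 3511, 3508 and 3508 TPM in myCAF libraries. The myCAF libraries were nearly equal to each other and above the rest. Pkm was 1.16-fold higher in myCAF than in qPSC (log2 0.21, SE 0.07; limma, adjusted p = 0.528). Gene-level values cannot part the muscle and tumour splice forms of Pkm.

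The enolases gave differing patterns. Eno1, the ubiquitous form, lay at 1500.0 to 1825 TPM in qPSC, 1521 to 1746 TPM in iCAF and 1866 to 2023 TPM in myCAF libraries, so that myCAF lay above the rest. Eno3, the muscle form (chr11:70657202-70662513, plus strand), lay at 270.0, 258 and 259 TPM in qPSC, 329.7, 301 and 348 TPM in iCAF and 256, 286 and 250.2 TPM in myCAF libraries. It was the 1 gene of the 31 for which every iCAF library was above the other 6. The iCAF value was 1.24-fold that of qPSC (log2 0.31, SE 0.08; limma, adjusted p = 0.163, and 0.0654 to 0.517 over the alternatives) and 1.23-fold that of myCAF (log2 0.30, SE 0.08; limma, adjusted p = 0.150). After median centring the difference from qPSC was 0.51 and that from myCAF 0.50. The neuronal form Eno2 was scarce and went the other way, at 2.74, 2.69 and 3.03 TPM in qPSC, 1.66, 2.08 and 1.69 TPM in iCAF and 3.64, 2.24 and 3.0 TPM in myCAF libraries. The iCAF libraries were its 3 lowest (iCAF against qPSC log2 -0.45, SE 0.15; limma, adjusted p = 0.267, and log2 -0.25 after median centring). Eno1b, a near-identical copy of Eno1 with which reads may be shared, lay at 2.94 to 6.31 TPM.

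Transcripts for making and for carrying lactate had fold changes of opposite sign in myCAF against qPSC, a difference that was not itself tested. Ldha, which reduces pyruvate to lactate, lay at 1789 to 2269 TPM in qPSC, 1747 to 2174 TPM in iCAF and 2384 to 2514 TPM in myCAF libraries, with myCAF above the rest (myCAF against qPSC log2 0.29; limma, adjusted p = 0.587). Slc16a1, the MCT1 carrier of lactate and pyruvate (chr3:104638668-104658462, plus strand, GRCm38), lay at 303, 308 and 316 TPM in qPSC, 262, 277 and 238 TPM in iCAF and 256, 261 and 277 TPM in myCAF libraries. Both primed groups lay below every qPSC library and overlapped each other. Slc16a1 was 1.16-fold lower in myCAF (log2 -0.22, SE 0.07; limma, adjusted p = 0.497, and 0.0366 to 1.00 over the alternatives) and 1.19-fold lower in iCAF than in qPSC (log2 -0.26, SE 0.07; limma, adjusted p = 0.203). With median-centred libraries the iCAF difference was -0.06 (limma, adjusted p = 0.691) and with limma-voom -0.08. These fold changes share the qPSC libraries. Its promoter is shown as that of the fourth smallest p and the only one of a gene with lower values (chr3:104638414-104638713, plus strand, GRCm38.p6, RefSeq). Capitals mark ACGTG (3 matches, of which 2 overlap on opposite strands as CACGTG) and GCGTG (2 matches), with their reverse complements.
Slc16a1: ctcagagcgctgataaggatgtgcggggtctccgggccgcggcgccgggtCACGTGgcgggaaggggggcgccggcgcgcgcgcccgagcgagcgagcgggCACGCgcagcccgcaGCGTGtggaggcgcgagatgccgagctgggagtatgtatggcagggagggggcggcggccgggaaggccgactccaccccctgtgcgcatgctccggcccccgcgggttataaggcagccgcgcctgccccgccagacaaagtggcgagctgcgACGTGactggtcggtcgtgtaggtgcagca
Over all 32851 RefSeq promoters of this length, 19.6% held ACGTG, 32.4% held GCGTG and 43.8% held either. Among the 50 promoters listed for 33 of the 34 genes the shares were 42.0%, 56.0% and 72.0%, as a description of the letters only. Several genes have more than 1 listed promoter, and these can overlap.

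Ldhb, the heart-type lactate dehydrogenase, was named after its values were seen, because its myCAF libraries disagreed. It lay at 3.54, 4.79 and 4.38 TPM in qPSC, 2.86, 3.25 and 3.34 TPM in iCAF and 7.81, 2.05 and 6.54 TPM in myCAF libraries. myCAF replicates 1 and 3 were the highest of all and replicate 2 the lowest. Of the 18 fibroblast markers, 12 had their lowest myCAF value in replicate 2, against 45.0% of all tested genes. For 4 markers it was the highest, against 27.9%. Those lowest in replicate 2 included Col1a1 (154.6, 68.2 and 157.7 TPM in replicates 1, 2 and 3). Those highest there included S100a4 (4242, 4525 and 4012 TPM). The part of these transcripts in Ldhb was not tested.

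Of the kinases that switch off pyruvate dehydrogenase, Pdk1 (chr2:71873224-71903858, plus strand) spread the most. Its values were 39.1, 33.0 and 47.1 TPM in qPSC, 26.7, 45.4 and 32.1 TPM in iCAF and 56.4, 53.3 and 64.0 TPM in myCAF libraries. The 3 myCAF libraries were the highest, and iCAF replicate 2 lay within the qPSC range. Pdk1 was 1.68-fold lower in iCAF than in myCAF (log2 -0.75, SE 0.19; limma, adjusted p = 0.145) and 1.46-fold higher in myCAF than in qPSC (log2 0.54, SE 0.19; limma, adjusted p = 0.538). Pdk3 lay at 67.1 to 94.5 TPM and Pdk2 at 1.14 to 2.66 TPM over all libraries. Pdha1 and Pdhb, subunits of the dehydrogenase itself, spanned 122 to 181 and 68.4 to 78.7 TPM, with myCAF above qPSC for Pdha1 and overlap for Pdhb. For glycogen, the synthase Gys1 lay at 58.4 to 67.3, 38.3 to 66.4 and 75.6 to 89.2 TPM in qPSC, iCAF and myCAF libraries, with myCAF above the rest, and the branching enzyme Gbe1 at 40.4 to 60.4 TPM with overlap between all groups. Gys1 shares 310 of 4789 exon bases with Ruvbl2 on the opposite strand, which lay at 177 to 198 TPM.

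**Figure D4:**
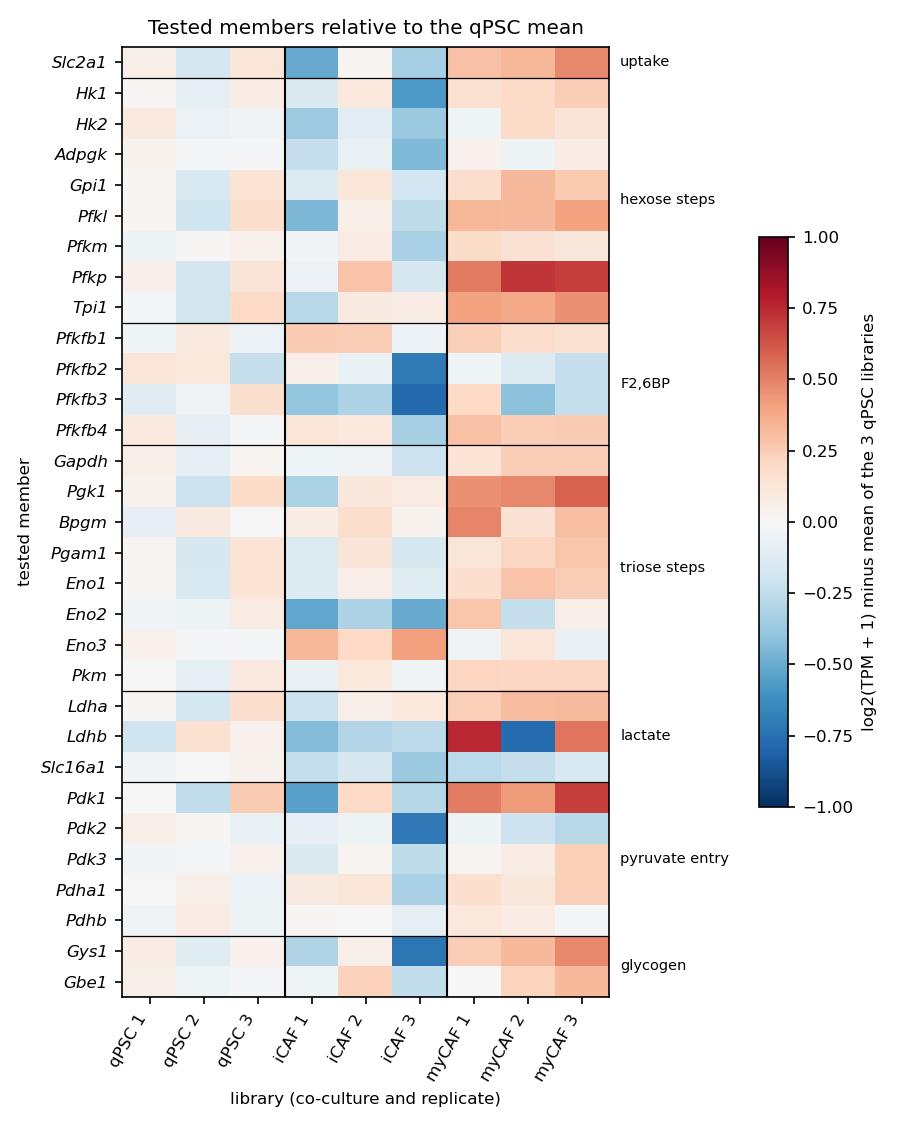
Each of the 31 tested genes in each library as log2(TPM + 1) minus the mean of the 3 qPSC libraries, ordered by role. Red is above and blue below that mean; myCAF columns are red for most genes, qPSC replicate 2 is mostly blue, and the strongest blue lies in iCAF replicate 3 (Pfkfb2, Pfkfb3, Pdk2 and Gys1) and, for Ldhb, in myCAF replicate 2.

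Shares of isozymes within a library do not depend on how libraries are scaled, though their size depends on the annotated exon lengths. Of the phosphofructokinase TPM, Pfkp gave 12.4%, 11.5% and 12% in qPSC, 13.9%, 13.7% and 12.8% in iCAF and 13.9%, 15.8% and 15.2% in myCAF libraries. The groups were ordered without overlap, though the lowest myCAF and the highest iCAF library both rounded to 13.9%. Pdk1 gave 32.3% ± 3.48 of the Pdk1, Pdk2 and Pdk3 sum with qPSC, 31.1% ± 4.47 with iCAF and 39.4% ± 1.09 with myCAF (SD, n = 3), and the myCAF libraries lay above all others. For each separated pair an exact permutation test gave p = 0.1, two-sided, the smallest that 3 libraries against 3 allow, and 0.30 when adjusted over the 24 comparisons of 8 shares. Eno3 gave 17.0% ± 2.06 of the enolase TPM in iCAF against 13.6% ± 1.14 in qPSC and 11.9% ± 0.593 in myCAF libraries, a share added after the data were seen; the closest iCAF and qPSC libraries lay at 14.7% each. Slc2a1 made up over 99.9% of its pair with Slc2a3, Ldha left Ldhb at most 0.327%, and the Hk2 share of the hexokinases lay at 39.4% to 46.7% with overlap between all groups.

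**Figure D5:**
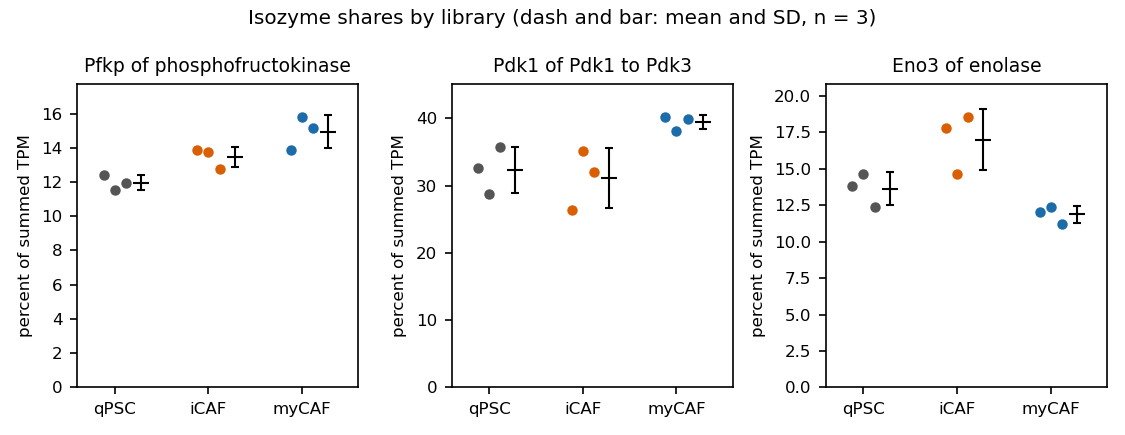
Share of 1 isozyme in the summed TPM of its family, in percent, by library, with a dash and bar for the mean and SD of 3 libraries. Pfkp is ordered qPSC, iCAF, myCAF, Pdk1 is highest in myCAF, and Eno3 is highest in iCAF libraries.

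Libraries of the same group also kept an order across many of the genes. Within qPSC, replicate 2 was the lowest library for 20 of the 31 genes, against 22.1% of all tested genes, and replicate 3 the highest for 17, against 25.1%. Within iCAF, replicate 2 was the highest for 24 genes (77.4%), against 55.2% of all genes. Replicate 3 was the lowest for 20 (64.5%), a smaller share than the 75.2% over all genes. Group means followed the order iCAF, qPSC, myCAF from low to high in 22 of the 31 genes (71.0%, against 37.2% of all tested genes).

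Among genes that regulate or neighbour the pathway, the calls were in Txnip, an arrestin-like inhibitor of glucose uptake, and in targets of hypoxia-inducible factor outside glycolysis. Of 13 regulators 12 were tested. Txnip was the 1 called, at 21.7 ± 3.82 TPM with iCAF, 44.5 ± 4.09 TPM with qPSC and 47.6 ± 3.25 TPM with myCAF (SD, n = 3). It was lower in iCAF than in qPSC (limma, log2 -1.01, adjusted p = 0.0146), against 0.598% of all tested genes called lower. It was also lower than in myCAF (limma, log2 -1.11, adjusted p = 0.0474), against 0.0598%. After median centring neither Txnip call was kept (limma, adjusted p = 0.0506 and 0.0876). Hif1a, the oxygen-regulated subunit of that factor, had a mean of 86.4 ± 19.8 TPM for iCAF and 107 ± 4.90 TPM for qPSC (limma, adjusted p = 0.316), and Myc at 118 ± 23.8 and 145 ± 17.8 TPM (limma, adjusted p = 0.324). Egln1, a prolyl hydroxylase that marks the factor for breakdown, had a mean of 174 ± 19.7 TPM for myCAF and 135 ± 13.6 TPM for qPSC (limma, adjusted p = 0.693).

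Of 17 hypoxia targets outside glycolysis, 16 were tested. All 16 had positive fold changes in myCAF against qPSC, against 52.0% of all tested genes, and 12 of them were without overlap, against 11.3%. The median of the 16 was 0.47 and 0 were called by limma. Without iCAF replicate 3, 2 were called, Ero1l and Bnip3l (limma, adjusted p = 0.0474 and 0.0436), against 1.04% of all genes higher. Ero1l, an oxidase of the endoplasmic reticulum, had 291 ± 59.4 TPM with myCAF and 145 ± 21.2 TPM with qPSC, and Bnip3l, a mitophagy receptor, 168 ± 10.8 and 121 ± 10.2 TPM. For iCAF against qPSC the list's median was -0.23 and 2 were called lower, Vegfa at 68.0 ± 10.3 against 115 ± 6.03 TPM and Ddit4, an inhibitor of mTOR signalling, at 87.5 ± 9.80 against 132 ± 6.11 TPM (limma, adjusted p = 0.0357 and 0.0442, and 0.154 and 0.241 after median centring), against 0.598% of all genes. In iCAF against myCAF 14 of the 16 lay lower without overlap, against 18.3% of all genes, and the list's median was -0.62. Vegfa was called lower, against 0.0598% of all genes (127 ± 14.3 TPM in myCAF, limma, adjusted p = 0.0474, and 0.103 after median centring). Ddit4 was called as well without iCAF replicate 3 (limma, adjusted p = 0.0327). Egln3 stands in both lists.

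Of 27 genes listed as other isozymes and carriers only 8 were tested, and 0 were called in any comparison by limma. Being listed, as for Pgam5 and Slc2a9, does not show that a gene acts in glycolysis. Bsg, the chaperone that brings Slc16a1 to the cell surface, lay at 1079.8 ± 116 TPM in myCAF, 846 ± 81.7 TPM with qPSC and 763 ± 96.6 TPM with iCAF, with all myCAF libraries above all qPSC libraries (limma, adjusted p = 0.516), against the lower values of Slc16a1 there. Pgam5 (57.7 ± 4.39 against 67.1 ± 0.772 TPM) and Slc2a9 (1.65 ± 0.132 against 1.99 ± 0.130 TPM) lay lower in myCAF than in qPSC without overlap, against 12.5% of all tested genes. Slc2a8 (3.96 ± 0.935 against 6.29 ± 0.612 TPM) lay lower in iCAF than in qPSC without overlap, against 23.2%.

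Around pyruvate dehydrogenase 8 of 8 genes were tested and 0 called by limma. Without iCAF replicate 3, 1.04% of all genes were called higher and 1.8% lower in myCAF against qPSC. Mpc2, a subunit of the mitochondrial pyruvate carrier, had 9.83 ± 0.767 TPM with myCAF, 13.6 ± 0.279 TPM with qPSC and 15.1 ± 2.74 TPM with iCAF, and was called without iCAF replicate 3 in both comparisons with myCAF (limma, adjusted p = 0.0172 and 0.0486). Its partner Mpc1 lay at 54.3 to 70.0 TPM. The phosphatase Pdp2, which turns the dehydrogenase back on, had 19.3 ± 0.0813 TPM with myCAF and 16.0 ± 1.01 TPM with qPSC (limma, adjusted p = 0.859, or 0.0472 when iCAF replicate 3 was left out), the core subunit Dlat at 63.0 ± 3.51 against 73.8 ± 2.80 TPM (limma, adjusted p = 0.979), and the regulator Pdpr at 16.2 ± 6.90 TPM with iCAF and 22.8 ± 0.843 TPM with qPSC (limma, adjusted p = 0.326).

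In glycogen metabolism 11 of 14 genes were tested, with 0 called by limma. All 11 had positive fold changes in myCAF against qPSC, against 52.0% of all tested genes, and 3 were without overlap, against 11.3%. These were Pgm1, which interconverts glucose phosphates (268 ± 28.6 against 192 ± 15.8 TPM), Ugp2, which makes the glucose donor for glycogen (52.8 ± 1.13 against 44.7 ± 0.958 TPM; called without iCAF replicate 3, limma, adjusted p = 0.0313), and Pgm2 (38.1 ± 1.81 against 34.4 ± 0.946 TPM). For gluconeogenesis and shuttles 8 of 12 were tested and 0 called. Pck2, the mitochondrial carboxykinase that makes phosphoenolpyruvate, had 71.0 ± 4.65 TPM with myCAF, 51.7 ± 3.33 TPM with qPSC and 51.1 ± 2.10 TPM with iCAF. It was called without iCAF replicate 3 against both other groups (limma, adjusted p = 0.0163 and 0.0388). In that fit, as for Ugp2, 1.04% of all genes were called higher in myCAF against qPSC. G6pc3, a ubiquitous glucose phosphatase, had 27.4 ± 2.82 TPM with iCAF and 35.5 ± 0.512 TPM with qPSC (limma, adjusted p = 0.152). All 7 pentose phosphate genes were tested and 0 called by limma. Taldo1, Pgd and Rpia lay higher in iCAF than in qPSC without overlap, against 4.67% of all tested genes, with Taldo1 at 284 ± 4.56 against 267 ± 6.20 TPM. Their log2 fold changes were 0.09, 0.07 and 0.16 (limma, adjusted p = 0.434, 0.446 and 0.366). Pgls had 44.3 ± 4.75 TPM with myCAF and 58.9 ± 6.98 TPM with qPSC (limma, adjusted p = 0.598).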

How the data were processed

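Gene expression was measured by RNA-seq in 9 libraries of sorted PancOVA cells, 3 per co-culture group, made with a stranded mRNA kit and read as single reads of 50 bases, per the labels' protocols. The authors deposited 1 table of TPM for 41457 genes. Salmon, R 4.0.1 and DESeq2 were used, per the submitters' processing notes, with no step named for each; which genome and annotation they used is not given in the sources used here. Of the symbols, 98.8% matched 1 gene model of GENCODE M21 (GRCm38). TPM times exon length came in whole reads for 97.8% to 98.1% of genes under 200 reads (tolerance 0.05 reads), which gave the depth.

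The 11704 genes that reached 1 TPM in 3 or more libraries were fitted as log2(TPM + 1) with limma 3.58.1 in R 4.3.3, all 9 libraries in 1 fit by group with a mean-variance trend, and p-values were adjusted by Benjamini-Hochberg over all genes. That scale understates fold changes of low genes; SE marks standard errors. The fit was tested on simulated data in which all libraries had the same spread and none stood apart as iCAF replicate 3 did. That test therefore does not show how the fit behaves on these libraries. Isozyme shares were compared by exact permutation of libraries. Genes given in every library are the 6 with the smallest p in each comparison and any called without iCAF replicate 3; neighbouring genes are named where called, or from the 3 with the smallest p of their list; 1 such result is not reported here. The genes and lists were chosen with earlier results of these data known. No duplicated library was found: replicates correlated at 0.980 to 0.997 and differed by more than sampling noise.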

Additional observations from a re-analysis of the deposited data

How the results depend on the processing

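Each comparison was repeated under 21 alternatives, which covered the pseudocount, the filter, the scaling, the variance model, limma-voom (reads scaled by median ratios), the libraries in the fit, a replicate block and each library left out. Of the 31 genes, the 6 with the smallest p in each comparison kept their sign there. Neighbouring genes did not always do so: Ugp2 in iCAF against myCAF moved from log2 -0.19 to 0.01 after median centring. In iCAF against qPSC 0 of the 31 genes were called under every alternative. In myCAF against qPSC 4 were called with only the 6 libraries of the comparison, 2 with median-centred libraries without iCAF replicate 3 (an alternative chosen after seeing the data), and 0 to 2 when 1 library was left out. In iCAF against myCAF 0 to 5 were called when 1 library was left out. Over all genes the calls ranged from 0 to 194, from 0 to 382 and from 0 to 281. Of the 24 isozyme comparisons 8 were without overlap, and 9 to 13 when 1 library was left out, where smaller groups overlap less often by construction. The summed level in iCAF minus qPSC was -0.0462% of all TPM, from -0.124% to 0.0239% with 1 library left out; the other summed differences kept their sign. The cause of these changes was not tested. With the replicate number as a block 0 of the 31 genes were called in each comparison, and over all genes 22, 0 and 0 in the order above. The numbers gave no sign of pairing: same-numbered libraries deviated with correlations of -0.353 to 0.248, and 1 of 9 correlated best with its own number. Deviations from a mean of 3 libraries are tied to each other, so this check cannot show that pairing was absent. Genes at low TPM rest on fewer reads, such as Ldhb with 40 to 172, Pdk2 with 60 to 109 and Pfkfb3 with 117 to 297 implied reads per library.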
